A study of Mus musculus with 3 samples.

Results

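The complement components and regulators described here were 9 genes, C1qa, C1qb, C1qc, C3, C4b, Cfb, C3ar1, C5ar1 and Cd55, chosen by name from the 32285 genes of the series. Their RNA was counted in single cells of mouse glomeruli, the filtering units of the kidney, as unique molecular identifiers (UMIs), each of which stands for 1 captured RNA molecule. There were 3 libraries with 1 per group, so no difference between groups has a replicate check and no test between them was made. The control library came from mice labelled as a blank control. The study used MRL/MpJ mice, a related strain without the Fas mutation, as controls in its other experiments, but neither its methods nor the labels tie a strain to this library. The untreated library came from MRL/lpr mice, a strain with a mutation of Fas that develops lupus nephritis without further treatment, and is labelled as the model group. The treated library came from MRL/lpr mice that had received 800000 mesenchymal stem cells from human umbilical cord, called hUC-MSCs, through the tail vein, with both MRL/lpr libraries collected on day 21 after treatment. The mice were female and bought at an age of 6 to 8 weeks, and MRL/lpr mice entered the model groups at about 16 weeks. The number of mice behind a library is not given in the sources used here, and the age of the control mice at collection is not given either.

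Complement is a cascade of plasma and cell-bound proteins that tags immune complexes, microbes and dying cells for removal. In the classical route, C1q binds antibody in immune complexes and leads to cleavage of C4, while factor B, encoded by Cfb, builds the enzyme that amplifies the cleavage of C3. CD55 takes these enzymes apart on the cell's own surface, and the small fragments C3a and C5a act through receptors encoded by C3ar1 and C5ar1. In lupus nephritis immune complexes settle in the glomerulus, and glomerular deposits of C1q and C3 are a familiar sign of the disease.

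Barcodes with at least 1000 UMIs and at most 10% mitochondrial UMIs were kept as cells, which left 11018 cells in the control, 14109 in the untreated and 16586 in the treated library, with a median of 5069, 3716 and 2727 UMIs. A cell was placed in 1 of 10 classes when at least 3 markers of that class had a UMI and at least 2 more of its markers than of any other class did, which placed 88.9%, 76.2% and 76.6% of the cells. Mononuclear phagocyte-like cells numbered 91, 1899 and 3437, endothelial-like cells 6331, 5511 and 7121, and mesangial and mural-like cells 554, 763 and 1025. None of the members was a marker of any class. In mononuclear phagocyte-like cells the summed level of the 8 class markers was 8017, 10499.9 and 11744 CPM, the UMIs of a gene in 1000000 UMIs of all cells of a class, against 73.6, 427 and 823 in endothelial-like cells. Between 23.9% and 34.1% of the phagocyte-like cells and between 38.9% and 54.2% of the mesangial and mural-like cells lay exactly at the margin of 2 markers. Libraries shared 35 to 61 cell barcodes, under 0.5% of any library. Barcodes with 1 to 100 UMIs, called empty droplets here, gave the free RNA of each library.

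Levels are given in CPM with exact 95% Poisson intervals, and ratios carry exact conditional binomial intervals. These intervals cover counting error only. The 2 comparisons, untreated MRL/lpr over control and treated over untreated MRL/lpr, share the untreated library. A member and class were compared where each library had at least 50 cells of the class and at least 20 UMIs of the gene were counted over both libraries.

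C1q was the member with the highest levels, and it was counted mainly in mononuclear phagocyte-like cells. C1qa, C1qb and C1qc encode the 3 chains of the C1q protein. In the GRCm38 build their genes lie side by side on the minus strand of chromosome 4, with C1qb at chr4:136880129-136886187, C1qc at chr4:136889804-136893065 and C1qa at chr4:136895917-136898803, and the whole cluster spans 18675 bases. The 3 chains had the same order of libraries, and the bases before the start of C1qb and C1qc are shown for that reason. They were taken from RefSeq promoters of GRCm38.p6, written 5′ to 3′ along the minus strand, for 250 bases of C1qb at chr4:136886201-136886450 and 99 bases of C1qc at chr4:136893066-136893164. For C1qc the 151 bases next to the RefSeq start were left off, since they lie within the gene in the GENCODE annotation. The next paragraph names the motifs, and capitals mark those that lie in the printed stretches.
C1qb: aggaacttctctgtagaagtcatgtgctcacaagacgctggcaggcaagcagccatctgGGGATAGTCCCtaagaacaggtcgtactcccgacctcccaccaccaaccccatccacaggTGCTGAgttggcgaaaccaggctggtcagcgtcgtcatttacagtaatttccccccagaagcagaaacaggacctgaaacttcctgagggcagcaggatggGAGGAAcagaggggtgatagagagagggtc
C1qc: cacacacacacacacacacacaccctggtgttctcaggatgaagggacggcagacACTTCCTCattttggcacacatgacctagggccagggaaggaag

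PU.1 is a transcription factor of the myeloid lineage, and its core GAGGAA was found in C1qb at 30 bases before the start, a string that 23.3% of 32851 promoter windows of 250 bases hold on either strand. The longer string GAGGAAGT was found in C1qc on the opposite strand at 195 bases before the start, where it contains the shorter core, and 2.44% of the windows hold it. C1qb also held TGCTGA, the core of sites for MAF factors, at 131 bases before the start (16.1% of windows), and an NF-kB-like string, GGGA and CC with 4 bases between them, on both strands in overlapping copies at 191 and 190 bases before it (17.6%). C1qc held the same string on the opposite strand at 40 bases before the start, outside the printed stretch. These matches describe letters and not binding. The window of C1qa was not among the promoters used here.

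In mononuclear phagocyte-like cells C1qa stood at 329 CPM (278 to 387) in the control, 1976 (1949 to 2004) in the untreated and 829.9 (815 to 846) in the treated library. C1qb stood at 456, 1747 and 753 CPM, and C1qc at 449.6, 1552 and 730.0 CPM. For each chain the untreated library was highest and the intervals of the 3 libraries did not overlap. The sum of the chains was 1235, 5275 and 2313 CPM. On the log2 scale it was 2.09 (1.97 to 2.22) higher in untreated MRL/lpr than in control. Treated over untreated it was -1.19 (-1.21 to -1.17). The control value rested on few cells, since 11% of its 91 phagocyte-like cells held all C1q UMIs of the class.

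The 3 chains kept similar proportions. In untreated phagocyte-like cells C1qa made up 37.5%, C1qb 33.1% and C1qc 29.4% of C1q UMIs, and in treated cells 35.9%, 32.6% and 31.6%. In the control the shares were 26.7%, 36.9% and 36.4% of 555 UMIs, with less C1qa than in either MRL/lpr library. Among the MRL/lpr subsets of phagocytes with over 1000 C1q UMIs the C1qa share ranged from 35.6% to 38.5%.

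**Figure D1:**
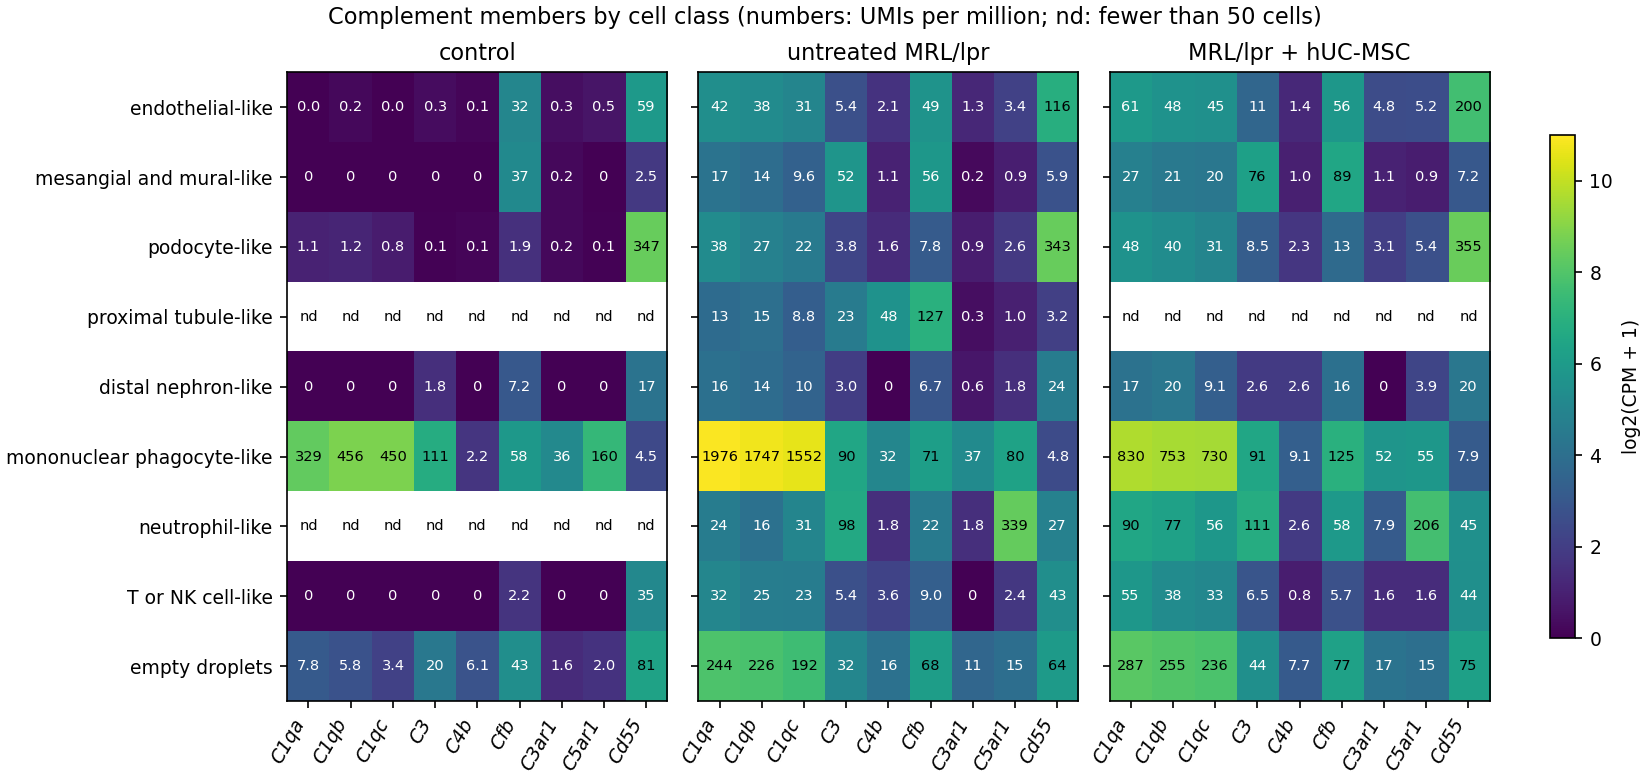
Level of each of the 9 members (columns) in each cell class and in empty droplets (rows) for the 3 libraries. Colour is log2(CPM + 1), the printed number is CPM, and classes with fewer than 50 cells are blank. C1q stands out in phagocyte-like cells of all 3 libraries, Cd55 in podocyte-like and endothelial-like cells, and C5ar1 in neutrophil-like and phagocyte-like cells.

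Phagocyte-like cells were divided further by 6 markers per subset, with at least 2 needed and more than for any other subset. The Cd5l macrophage-like subset is named for a scavenger protein of tissue macrophages, the Trem2 Gpnmb subset for 2 genes of lipid-handling macrophages, and the patrolling and inflammatory subsets for the 2 kinds of blood monocyte. The libraries differed in these subsets. The untreated library held 90 Cd5l, 206 Trem2 Gpnmb, 1084 patrolling, 190 inflammatory and 322 unplaced cells, the treated library 4, 1045, 1505, 186 and 672, and the control 0, 1, 65, 19 and 4. The class values above therefore mix different subsets. The 65 control cells placed as patrolling had 2877 CPM of the inflammatory markers and 2227 of the patrolling ones, against 1489 and 2112 in the untreated and 1048 and 2000.1 in the treated library. By this sum the markers of the control cells go against that name, though 6 of 6 patrolling and 4 of 6 inflammatory markers had a UMI. These cells are therefore called control cells of the patrolling gate.

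C1q was highest in the macrophage subsets. In the untreated library it reached 13765 CPM (13436 to 14101) in Cd5l cells, 11559 in Trem2 Gpnmb cells and 9991 in unplaced cells. It was 2073 CPM in patrolling and 226 in inflammatory monocyte-like cells, and the intervals of these 5 subsets did not overlap. The inflammatory value lay below the 663 CPM of empty droplets in that library.

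Within subsets C1q was lower in the treated library. It stood at 11559 CPM untreated and 4849 treated in Trem2 Gpnmb cells, a log2 difference of -1.25 (-1.28 to -1.22). In patrolling cells it stood at 2073 CPM untreated and 370.0 treated, a log2 difference of -2.49 (-2.56 to -2.41). Control cells of the patrolling gate held 1004 CPM, but after thinning 2 of the 65 cells held 91.7% of these UMIs and 95.4% had none, so no ratio to the control is given. In unplaced cells the treated to untreated difference was -2.56 (-2.62 to -2.51) and in inflammatory cells -0.65 (-0.96 to -0.34). All 4 subsets with 50 cells in both MRL/lpr libraries were thus lower in the treated one, by different amounts. The treated values in patrolling cells and in inflammatory cells (144 CPM) were below the 779 CPM of empty droplets.

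**Figure D2:**
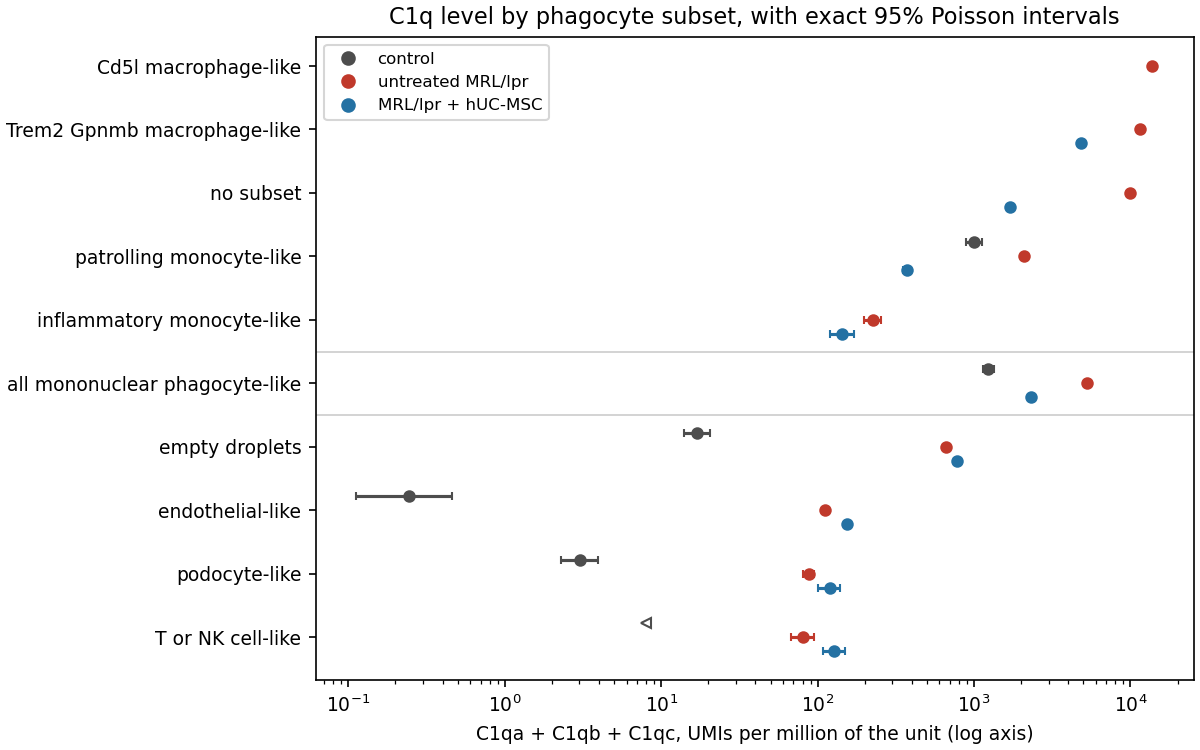
Sum of C1qa, C1qb and C1qc in CPM (log axis) for phagocyte-like subsets, all phagocyte-like cells, empty droplets and other classes, with exact 95% Poisson intervals. Units with fewer than 50 cells in a library are not drawn, the open triangle is the upper bound for 0 UMIs, and the control point of the patrolling gate comes from 65 cells with a higher sum of inflammatory than of patrolling markers. Treated values lie below untreated ones in each subset drawn for both and above them in empty droplets and the other classes. The values are not corrected for free RNA, and the endothelial-like order turned after its subtraction.

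Subsets of the same name were not alike in both MRL/lpr libraries. In Trem2 Gpnmb cells Trem2 stood at 261 CPM in the untreated and 844 in the treated library, Gpnmb at 57.6 and 734, and Fabp5 at 2581 and 9338. Cd5l, a marker of the other macrophage subset, stood at 379 and 45.9 CPM in these cells. How far the differences in C1q and other complement genes within this subset follow this difference in markers was not tested.

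To compare cells at equal depth, every cell was thinned to 1000 UMIs, and cells with at least 5 C1q UMIs were counted, a split chosen after the data were seen. They made up 29.8% (27.8 to 31.9) of untreated, 12.8% (11.7 to 13.9) of treated and 6.59% (2.46 to 13.8) of control phagocyte-like cells. In untreated cells they held 97.0% of the C1q UMIs of the class, so C1q was concentrated in a minority. Among Trem2 Gpnmb cells their share was 79.6% untreated and 32.4% treated, and the median of those cells was 14 and 10 C1q UMIs per 1000.

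The C1q-rich cells of the untreated library crossed the subset names. Of 566 such cells 15.2% were Cd5l, 29.0% Trem2 Gpnmb, 19.1% patrolling and 36.4% unplaced. The 164 placed as Trem2 Gpnmb had 512 CPM of Cd5l, 274 of Trem2 and, from 2 UMIs, 12.2 of Gpnmb. The 339 C1q-rich cells of that name in the treated library had 91.4, 1091 and 687 CPM, so the name covers unlike cells. Among untreated patrolling cells, the 108 C1q-rich cells had 565 CPM of Cd5l and 389 of Ms4a7, a gene of tissue macrophages, against 2.05 and 27.7 CPM in the other 976. Ace, which marks patrolling monocytes, went the other way, with 27.8 against 242 CPM. Other monocyte genes differed less, Cd300e at 278 against 399.6 CPM and Treml4 at 167 against 392.4, and the macrophage genes Adgre1 (148 against 145) and Trem2 (9.26 against 12.3) were close. These 108 cells held 91.9% of the C1q UMIs of the subset. In the treated library 77.2% of 439 C1q-rich cells were Trem2 Gpnmb cells, and patrolling cells with at least 5 C1q UMIs were 1.99% of their subset against 9.96% untreated.

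**Figure D3:**
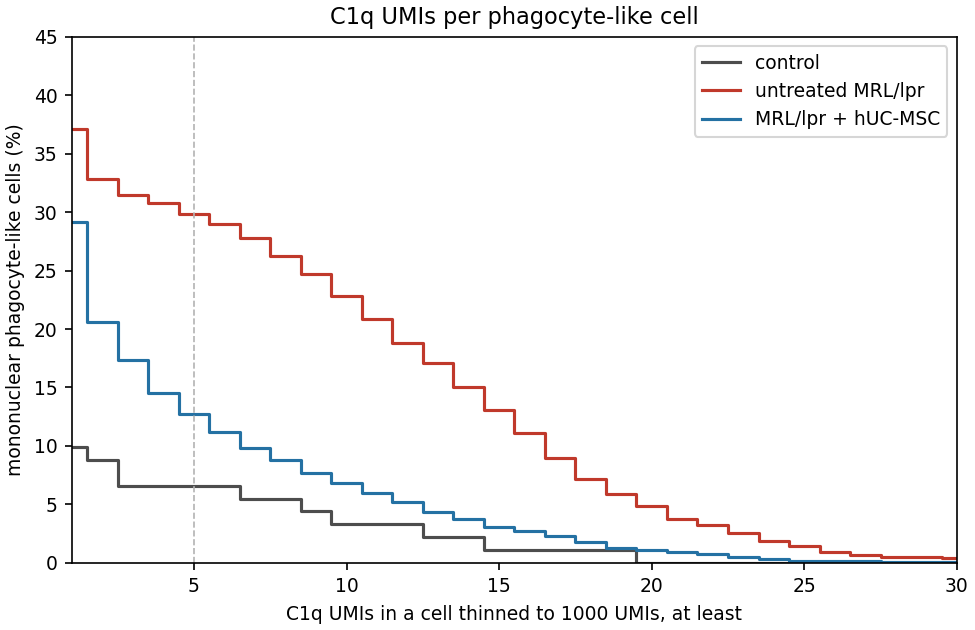
Share of mononuclear phagocyte-like cells (y axis, %) with at least the number of C1q UMIs on the x axis, each cell thinned to 1000 UMIs. The dashed line marks 5 UMIs, where the shares are 29.8% untreated, 12.8% treated and 6.59% control.

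Outside the phagocytes C1q lay below its level in the free RNA. Phagocyte-like cells held 81.7%, 81.0% and 70.7% of all C1q UMIs of cells in the control, untreated and treated library, and cells of no class 8.98%, 12.3% and 16.8%. In endothelial-like cells C1q stood at 0.244, 112 and 154 CPM, in podocyte-like cells at 3.03, 87.8 and 119, and in mesangial and mural-like cells at 0, 41.2 and 67.4. Empty droplets held 16.9, 663 and 779 CPM in the same libraries.

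In the 7 non-phagocyte classes of the untreated library with 50 cells the C1q level was 5.62% to 16.8% of that of the empty droplets. In endothelial-like cells it was 16.8% in the untreated and 19.8% in the treated library, where markers of other classes gave an estimate of 15.5% and 20.9% free RNA. In other classes the C1q percentage and that estimate were closer or further apart. They were 5.62% and 5.63% in untreated proximal tubule-like cells. In neutrophil-like cells the C1q percentage lay below the estimate in the untreated library (10.7% and 18.5%) and above it in the treated one (28.5% and 14.7%), and in T or NK cell-like cells likewise (12.1% and 14.9%, then 16.4% and 12.3%). It lay above the estimate in podocyte-like cells of both, at 13.2% and 11.4% untreated and 15.3% and 12.6% treated. It lay below in both for distal nephron-like (6.02% and 10.6%, then 5.86% and 12.5%) and mesangial and mural-like cells (6.22% and 8.39%, then 8.65% and 10.3%). The share of T or NK cell-like cells with a C1q UMI, a class not known to make C1q, was 0%, 14.8% and 21.5%, and 0%, 9.90% and 13.9% after thinning. Endothelial-like cells reached 0.126%, 24.2% and 29.0%, and 0%, 9.45% and 14.5% after thinning, with median depths of 4392, 3799 and 2748 UMIs against 2691, 1983 and 1744 in T or NK cell-like cells. The log2 ratio of endothelial C1q in untreated MRL/lpr over control was 8.84, and 6.98 after the estimated free RNA was subtracted. In the control the C1q percentage, 1.44%, lay below the estimate of 4.25%. The control was thus at the floor after subtraction, and 6.98 is a lower limit set by that floor. In the untreated library the C1q percentage was only slightly above the estimate, at 16.8% and 15.5%. Whether endothelial-like cells held C1q RNA of their own was not tested. Treated over untreated the log2 ratio of endothelial C1q was 0.47. It turned negative after this subtraction, but the treated estimate exceeded the C1q percentage. The treated library was thus at the floor, and the value is an upper limit. All 8 phagocyte markers were also counted in endothelial-like cells of each library.

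C4b encodes the C4 protein that C1-bound proteases cut. It lies at chr17:34728380-34743882 on the minus strand. Its near-identical neighbour C4a had 6, 68 and 50 UMIs in all cells against 12, 656 and 257 for C4b, and reads shared between the pair make both counts uncertain. In phagocyte-like cells C4b stood at 2.23 CPM, from 1 UMI, in the control, 32.1 (28.7 to 35.8) in the untreated and 9.14 (7.59 to 10.9) in the treated library. The treated library was lower by 1.81 on the log2 scale (-2.13 to -1.51).

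In the untreated library C4b was highest in the subsets where C1q was. It reached 110.3 CPM in Cd5l cells, 59.0 in unplaced cells and 53.5 in Trem2 Gpnmb cells, against 13 in patrolling and 13.1 in inflammatory cells and 16.3 in empty droplets. In Trem2 Gpnmb cells of the treated library it stood at 11.1 CPM, a difference of -2.27 (-2.78 to -1.76), which thinning moved to -1.34. In inflammatory cells of the treated library it stood at 22 CPM, from 20 UMIs, with a difference of 0.75 (-0.29 to 1.82), so the order of the subsets there was not that of C1q. Untreated C1q-rich phagocytes had 84.8 CPM of C4b and the others 3.0. The proximal tubule-like cells, 406 in the untreated library, also held C4b, at 47.6 CPM (40.3 to 56.0), with a UMI in 20% of cells against 0.837% of T or NK cell-like cells, and in 4.43% against 0.558% after thinning.

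C3 encodes the central protein of the cascade, cut in all of its routes. It lies at chr17:57203970-57228136 on the minus strand and overlaps a microRNA gene, Mir6978, within it. Its RNA appeared in mesangial and mural-like cells of both MRL/lpr libraries and in none of the control cells of that class. Its promoter is shown for that reason. It covers 250 bases at chr17:57228137-57228386 in RefSeq, GRCm38.p6, written along the minus strand with motifs in capitals.
C3: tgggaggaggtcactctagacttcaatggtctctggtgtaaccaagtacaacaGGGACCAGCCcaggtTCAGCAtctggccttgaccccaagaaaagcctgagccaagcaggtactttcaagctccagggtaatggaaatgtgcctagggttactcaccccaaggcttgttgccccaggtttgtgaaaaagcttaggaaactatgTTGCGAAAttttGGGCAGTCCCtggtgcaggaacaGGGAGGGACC

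TTGCGNAA, a string bound by C/EBP factors of the acute phase response, was found at 45 bases before the start, and 0.670% of promoter windows hold it on either strand. The NF-kB-like string was found at 197, 33 and 10 bases before the start, the middle copy on the opposite strand, and TGCTGA at 182 on the opposite strand. The interferon strings, GAAA repeated with 2 bases between the copies (2.98% of windows) and TTCNNNGAA (7.02%), were not found in the windows of the 6 members that had one.

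In mesangial and mural-like cells, the contractile support cells of the glomerular capillaries and vessels, C3 had 0 UMIs in 554 control cells, 237 in 763 untreated and 623 in 1025 treated cells. The levels were 52.0 CPM (45.6 to 59.0) and 75.7 CPM (69.9 to 81.9) in the MRL/lpr libraries. Against a floor of 3 UMIs over the control class, the untreated level was at least 90.1-fold higher, or 6.49 on the log2 scale, with 6.18 at the lower limit of counting error. After thinning, where the same floor weighs more, it was 3.51. The treated level was 0.54 (0.33 to 0.77) higher on the log2 scale, where the median of all genes in this class was 0.14 higher, so the difference relative to it was 0.41. With 200 to 3000 genes per cell it was 1.16.

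C3 was seen in few of these cells. It was found in 0%, 12.7% and 18.8% of them, and in 0%, 5.24% and 5.76% after thinning, against 0%, 0.279% and 1.07% of thinned T or NK cell-like cells. Median depths were 5020, 4157 and 5129 UMIs, and 0 of 554 control cells, read against a limit of 3 counts, allow a share of up to 0.542% of cells with a C3 UMI, not of cells that express C3. Cells with at least 5 C3 UMIs, 11 and 35 in number, held 44.7% and 58.1% of the class's C3. The untreated level was 1.63 times and the treated 1.71 times that of empty droplets, where C3 was at 31.9 and 44.2 CPM. The summed level of the 8 phagocyte markers in this class was 34.8, 135 and 388 CPM in the 3 libraries, with 6 to 8 of the 8 markers counted, and its part in the C3 level was not tested.

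Cells with C3 differed from their neighbours in other genes, a split made after the data were seen. After thinning, the 40 untreated cells with C3 had 525 CPM of Col3a1, a fibrillar collagen, against 74.7 in the other 723, and 59 treated cells had 983 against 282. Cfb was also higher, at 150 against 37.3 and 237 against 80.7 CPM. Itga8, a mesangial integrin, was lower, at 325 against 712 and 237 against 526. Lyz2, a phagocyte gene, stood at 50 against 62.2 in the untreated and 271 against 208 in the treated library. Other stromal genes did not all follow Col3a1. Dcn stood at 0 against 31.8 CPM untreated and 186 against 52.8 treated, Col1a1 at 0 against 1.38 and 84.7 against 1.04, and Pdgfra at 150 against 40.1 and 33.9 against 45.5. Pdgfrb, a receptor of mural cells, was close in both, at 350 against 344 and 441 against 458. The values of the cells with C3 rest on at most 58 UMIs of any gene named here.

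Within the class, cells placed as mesangial had C3 at 50 CPM untreated and 59.2 treated, a log2 difference of 0.24 (0.01 to 0.48), near the 0.15 median of all genes there. The 52 smooth muscle or renin-like cells of the treated library reached 363 CPM (287 to 453), but 5 of them held 97.4% of the 78 UMIs. The corresponding untreated subset had 39 cells and was not compared.

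In phagocyte-like cells C3 differed little between libraries, at 111 CPM (82.6 to 147) in the control, 90.2 (84.4 to 96.3) untreated and 90.9 (85.9 to 96.2) treated. The treated to untreated difference was 0.01 (-0.11 to 0.14) on the log2 scale. Monocyte-like cells had more C3 than macrophage-like cells. Untreated and treated levels were 160.2 and 180.4 CPM in inflammatory cells, 96.0 and 110.3 in patrolling cells and 52.1 and 55.7 in Trem2 Gpnmb cells. Neutrophil-like cells stood at 97.8 and 111 CPM. Endothelial-like cells held 0.271, 5.44 and 11.2 CPM, at most 0.254 times the level of empty droplets.

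Cfb encodes factor B of the alternative route. It lies at chr17:34856374-34862518 on the minus strand and overlaps Gm20547, a gene on the same strand that is not in the files, so reads of the pair may be counted together. Cfb was counted in endothelial-like, mesangial and mural-like, proximal tubule-like and phagocyte-like cells, and its level in T or NK cell-like cells was at most 8.98 CPM. In mesangial and mural-like cells it stood at 36.5 CPM (31.5 to 42.1), 56.3 (49.7 to 63.7) and 89.5 (83.1 to 96.2), and the 3 intervals did not overlap. The log2 differences were 0.63 (0.35 to 0.90) and 0.67 (0.46 to 0.88), the second 0.53 relative to all genes. After thinning the first was 0.19. In endothelial-like cells Cfb stood at 31.9, 49.1 and 56.3 CPM, and the untreated proximal tubule-like cells reached 127 CPM.

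In phagocyte-like cells Cfb differed in the opposite direction from C1q between the MRL/lpr libraries, at 57.9, 71.4 and 125 CPM, with a log2 difference of 0.81 (0.68 to 0.94). It was higher in the treated library in each compared subset, from 98.2 to 187 CPM in patrolling, 84.5 to 156 in inflammatory, 26.0 to 63.9 in Trem2 Gpnmb and 44.8 to 131 in unplaced cells. In Trem2 Gpnmb cells the difference was 1.29 (0.81 to 1.82). C1q-rich cells had less Cfb than the other phagocytes, with 23.0 against 84.0 CPM untreated and 79.7 against 145 treated. Empty droplets held 42.7, 68.0 and 76.8 CPM, which patrolling and inflammatory cells exceeded in both MRL/lpr libraries. Trem2 Gpnmb cells of both, untreated unplaced cells, endothelial-like cells of all 3 and mesangial and mural-like cells of the control and untreated libraries lay below them. The share of phagocyte-like cells with a Cfb UMI was 17.6%, 23.3% and 29.3%, and after thinning 7.69%, 6.0% and 11.6%, against 0.735%, 0.697% and 0.534% of T or NK cell-like cells.

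Cd55 encodes decay-accelerating factor, a lipid-anchored regulator of C3 cleavage. It lies at chr1:130439027-130462744 on the minus strand, and its 5′ end overlaps Gm16083, an antisense gene of the files. Podocyte-like cells, the epithelial cells that wrap the capillaries, had the highest Cd55 level of the classes with 50 cells in each library, at 347 CPM (339 to 356), 343 (329 to 357) and 355 (323 to 389). The log2 differences were -0.02 (-0.09 to 0.05) and 0.05 (-0.10 to 0.20), so a difference beyond counting error was not detectable.

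In endothelial-like cells Cd55 differed between libraries. It stood at 59.4 CPM (57.0 to 62.0) in the control, 116 (112 to 120) in the untreated and 200.0 (195 to 205) in the treated library. The log2 differences were 0.97 (0.89 to 1.05) and 0.78 (0.72 to 0.84), the latter 0.67 relative to the median of all genes in the class. Cd55 UMIs were found in 26.0%, 36.0% and 39.8% of these cells, and in 6.0%, 10.7% and 16.4% after thinning, against 0%, 0.790% and 1.11% of thinned phagocyte-like cells. Empty droplets held 80.5, 63.5 and 74.6 CPM, a different order of libraries. The estimated share of free RNA in endothelial-like cells was 4.25%, 15.5% and 20.9%, and its part in the Cd55 values was not tested.

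The same order of libraries held in endothelial-like cells with and without an Ehd3 UMI after thinning, a split chosen after the data were seen. Ehd3 is a gene of glomerular capillary endothelium and a marker of the class. Before thinning the median cell had 8, 8 and 7 of the 8 class markers. A thinned cell without an Ehd3 UMI can therefore still be a glomerular one, and the split does not separate parts of the endothelium. Cells with an Ehd3 UMI had 64.3, 122 and 219 CPM of Cd55, and cells without one 48.6, 109 and 182. Cells with an Ehd3 UMI made up 71.0%, 55.1% and 49.6% of the class. Summed over all cells Cd55 stood at 120.4, 95.3 and 105 CPM, and podocyte-like cells held 67.1%, 34.8% and 6.42% of its UMIs as their number went from 2468 to 1037 and 226.

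**Figure D4:**
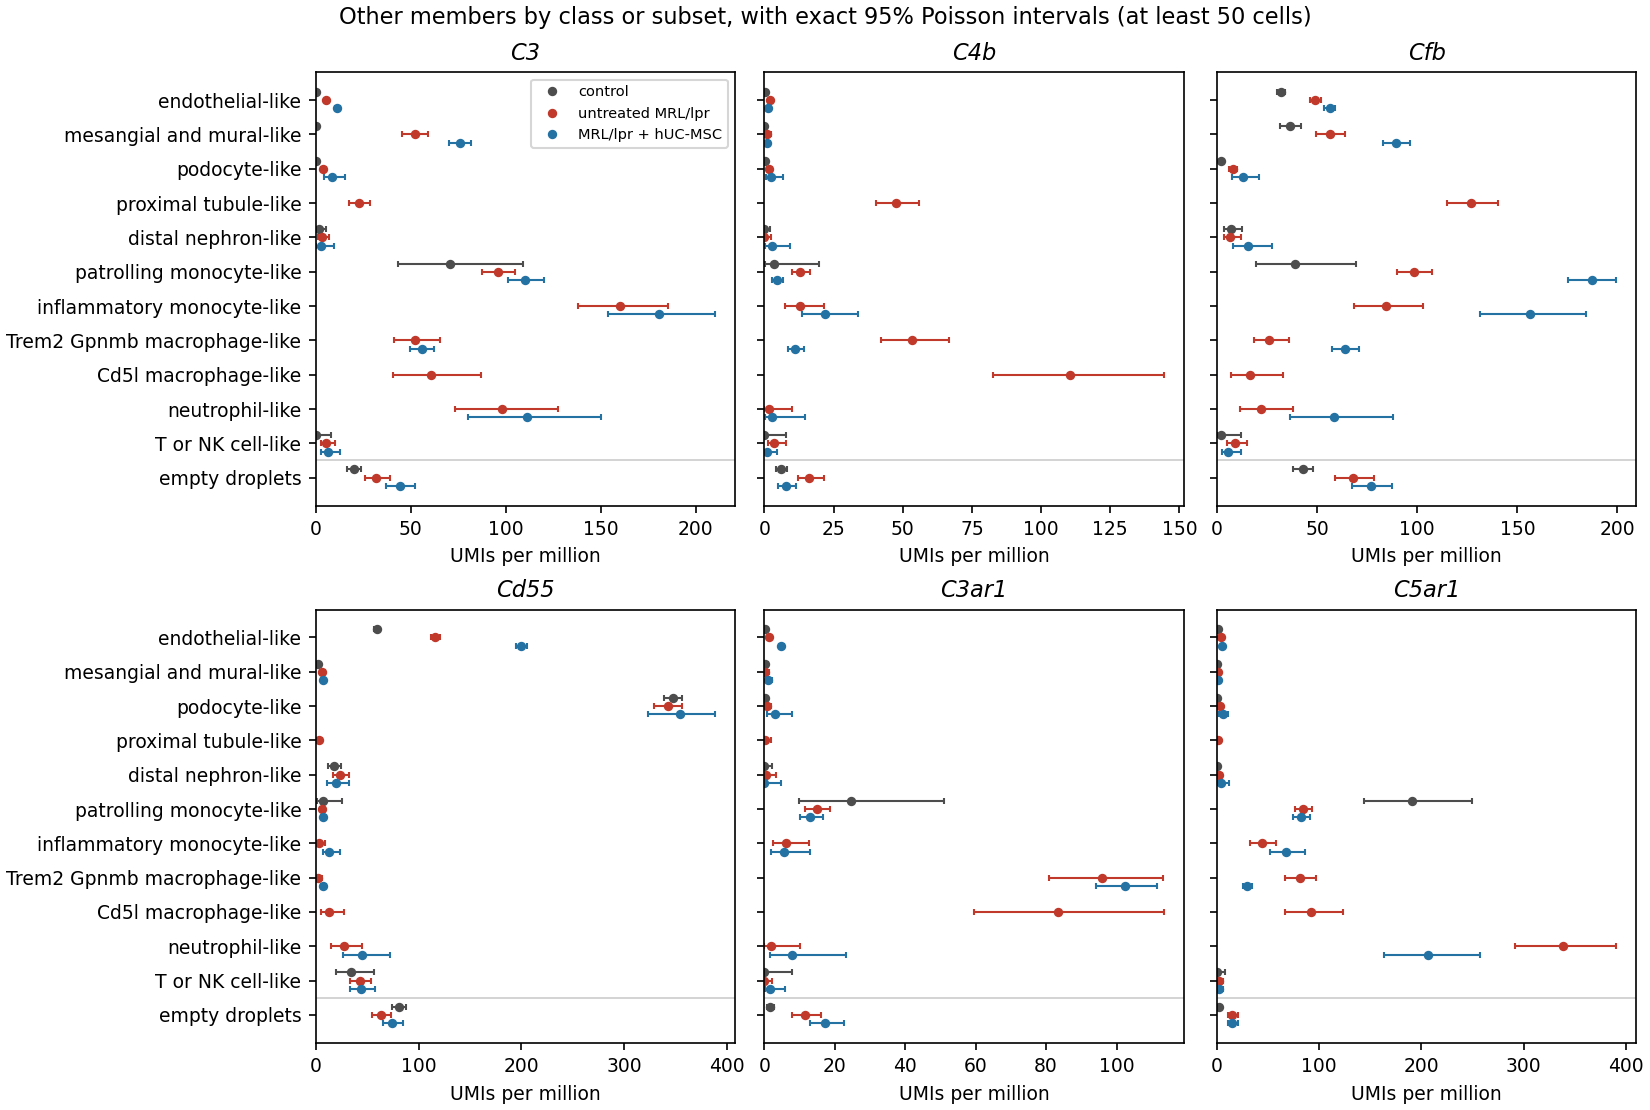
C3, C4b, Cfb, Cd55, C3ar1 and C5ar1 in CPM by class or subset and library, with exact 95% Poisson intervals; each panel has its own linear axis from 0, and units with fewer than 50 cells are not drawn. Points of the control library lie at 0 for C3 in mesangial and mural-like cells, and endothelial-like Cd55 steps up from 59.4 to 116 and 200.0.

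C3ar1, the C3a receptor, lies at chr6:122847138-122856161, and C5ar1, the main C5a receptor, at chr7:16246743-16259540, both on the minus strand. C5ar1 was highest in neutrophil-like cells, at 339 CPM (292 to 391) in 225 untreated and 206 (163 to 257) in 169 treated cells. The log2 difference was -0.71 (-1.11 to -0.33), where the median over all genes in this class was -0.19. The control library had only 29 such cells, with 701 CPM. In phagocyte-like cells C5ar1 stood at 160.2 CPM (125 to 202), 79.8 (74.3 to 85.5) and 55.1 (51.2 to 59.3), with log2 differences of -1.01 (-1.36 to -0.64) and -0.53 (-0.68 to -0.39). The first was past 2-fold under 3 of 10 alternatives.

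C5ar1 differed by subset. In patrolling cells it stood at 84.2 CPM untreated and 82.3 treated, and at 191 in control cells of the patrolling gate, with no treated to untreated difference beyond counting error at -0.03 (-0.23 to 0.17). In Trem2 Gpnmb cells it was 80.9 CPM untreated and 29.5 treated, a difference of -1.46 (-1.81 to -1.10). In inflammatory cells it was 43.5 and 67.1 CPM, with a difference of 0.62 (0.06 to 1.19), which thinning moved to 1.88. C5ar1 was found in 54.2% and 34.9% of neutrophil-like cells of the MRL/lpr libraries, at median depths of 1800 and 1810 UMIs, and in 34.2% and 19.5% after thinning, against 0.279% and 0% of T or NK cell-like cells.

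C3ar1 was highest in the macrophage subsets. In phagocyte-like cells it stood at 35.6 CPM (20.4 to 57.8), 37.4 (33.7 to 41.4) and 51.8 (48.0 to 55.8), with log2 differences of 0.07 (-0.65 to 0.89) and 0.47 (0.29 to 0.65). Trem2 Gpnmb cells held 96.0 CPM untreated and 103 treated, a difference of 0.10 (-0.18 to 0.37). Patrolling cells held 14.8 and 13 CPM, and inflammatory cells 6.10 and 5.5. Unplaced cells held 60.6 and 42.3 CPM, a difference of -0.52 (-0.94 to -0.10). No subset compared was higher in the treated library beyond counting error. Trem2 Gpnmb cells were more numerous in it, and the part of subset numbers in the class difference was not tested. C1q-rich cells had more C3ar1 than the other phagocytes, with 83.0 against 15.0 CPM untreated and 128 against 37.0 treated. Within subsets they were also higher. The intervals overlapped in treated Trem2 Gpnmb cells, at 139 CPM (102 to 184) against 94.9 (73.5 to 121), and in unplaced cells of both libraries. They did not in untreated patrolling cells, at 74.1 CPM (32.0 to 146) against 8.20 (3.54 to 16.2).

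**Figure D5:**
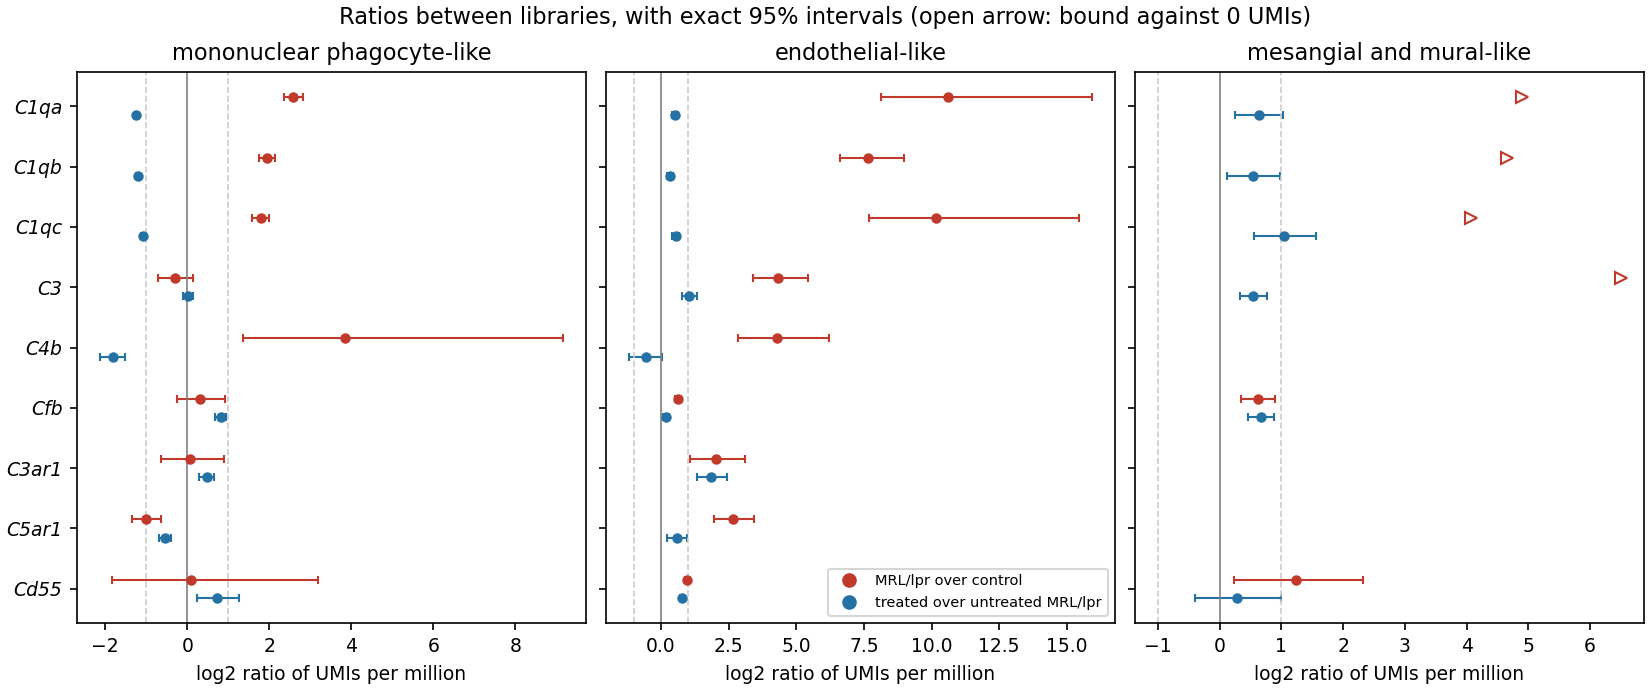
Log2 ratios of CPM for the 9 members in 3 classes, untreated MRL/lpr over control and treated over untreated MRL/lpr, with exact 95% intervals; dashed lines mark 2-fold, open triangles are bounds against 0 UMIs, and members with fewer than 20 UMIs over both libraries are not drawn. In phagocyte-like cells the C1q chains and C4b lie on opposite sides of 0 in the 2 comparisons.

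Over all classes, 38 pairs of a member and a class were compared between untreated MRL/lpr and control. Of these, 26 were at least 2-fold higher and 1 at least 2-fold lower, against 11.9% and 6.81% of all 71915 gene and class pairs. By class, 5 of 9 members were past 2-fold in either direction in phagocyte-like cells (all genes 26.6%), 7 of 9 in endothelial-like cells (19.3%) and 5 of 6 in mesangial and mural-like cells (15.3%). In endothelial-like, mesangial and mural-like, podocyte-like and T or NK cell-like cells each of the 3 C1q chains was among the higher pairs. Outside phagocyte-like cells every higher pair but C3 in mesangial and mural-like cells lay below the level of empty droplets in the untreated library. The control had 0 C1q UMIs in mesangial and mural-like, distal nephron-like and T or NK cell-like cells. The C1q pairs of these classes, and C3 in mesangial and mural-like cells, met the limit of 20 UMIs through the untreated library alone. Their ratios are bounds against the floor of 3 UMIs. The 3 C1q chains are also counted as separate members, although their levels had the same order of libraries in phagocyte-like cells. After subtraction of the estimated free RNA 26 of all 38 pairs could still be compared, and the rest had both libraries at or under the floor. Of the pairs still compared, 12 were at least 2-fold higher and 2 lower. Of all gene and class pairs 20.1% were then past 2-fold in either direction.

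Between treated and untreated MRL/lpr 48 pairs were compared, of which 9 were at least 2-fold higher and 4 at least 2-fold lower, against 4.13% and 5.43% of 77580 pairs of all genes. The 4 lower pairs were C1qa, C1qb, C1qc and C4b in phagocyte-like cells, where all genes reached 7.87% in either direction. In endothelial-like cells 2 of 9 members were past 2-fold, C3 and C3ar1 (all genes 11.3%), both below the level of empty droplets. In mesangial and mural-like cells 1 of 6 was, C1qc, also below that level (all genes 10.2%). Relative to the median of all genes in the class, C3 in endothelial-like cells was 0.94 and this C1qc 0.90, both under 2-fold. The other higher pairs were C1qa, C1qb and Cfb in neutrophil-like cells, and 3 whose intervals include 0. These were C3 (1.14, -0.02 to 2.20) and C5ar1 (1.08, -0.43 to 2.40) in podocyte-like and Cfb (1.23, -0.07 to 2.56) in distal nephron-like cells, from 7 to 27 UMIs a library.

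The wider pathway was read from a list of 40 further complement genes, and the pairs below are of these genes. The counts of this list were not corrected for free RNA. It was estimated at 8.39% to 15.5% of the untreated and 2.20% to 4.25% of the control classes compared, and its part in the counts was not tested. Between untreated MRL/lpr and control 25 of them gave 84 pairs with a class, of which 34 were at least 2-fold higher and 5 lower, where all genes reached 11.9% and 6.81%. Between treated and untreated MRL/lpr 26 gave 91 pairs, with 15 higher and 7 lower, where all genes reached 4.13% and 5.43%. Initiation genes of the classical and lectin routes had 13 higher and 4 lower of 25 pairs in the first comparison and 5 and 2 of 24 in the second. Membrane regulators had 2 higher of 26 and 0 higher and 1 lower of 27, and terminal components, with 2 genes, 4 higher of 4 and 3 lower of 4. Soluble regulators had 7 higher of 16 and 4 higher of 16, receptors 5 higher and 1 lower of 10 and 5 and 1 of 15, and Cfp, encoding properdin and the only other gene of the alternative loop with enough UMIs, 3 higher of 3 and 1 of 5.

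Among these, 3 genes were highest in the untreated library in phagocyte-like cells, as C1q was. Fcna, a ficolin that starts the lectin route, stood at 4.45, 209.9 and 15.3 CPM. Vsig4, a receptor for C3 fragments on tissue macrophages, stood at 0, 29.4 and 1.35, and C6, a component of the membrane attack complex, at 0, 25.1 and 0.300. With 2, 0 and 0 UMIs of these genes in the control, its order against the treated library was not detectable at this depth. For Fcna the treated to untreated difference was -3.78 (-3.99 to -3.57), and within Trem2 Gpnmb cells, at 353 and 30.2 CPM, it was -3.55 (-3.81 to -3.29).

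Other genes of the list differed in resident cells. In mesangial and mural-like cells C2, the partner of C4 in the classical convertase, stood at 7.02 CPM untreated and 19.7 treated, while empty droplets held 6.25 and 6.40 and the phagocyte markers of this class summed to 135 and 388. In podocyte-like cells Clu, a regulator of the terminal complex, stood at 5.84, 24.9 and 113 CPM, and the protease gene C1s1 at 3.59, 7.41 and 36.3. In distal nephron-like cells Clu was 789 CPM untreated and 1941 treated. Empty droplets held 170.5, 84.7 and 80.7 CPM of Clu and 17.3, 22.2 and 46.7 of C1s1, so C1s1 in podocyte-like cells lay below them. The summed neutrophil markers were 74.5 untreated and 353 treated in podocyte-like and 31.5 and 611 in distal nephron-like cells. The treated podocyte-like class held 226 cells, and the part of these markers in the values was not tested.

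Genes with the most similar pattern were sought over 21 units, each a class with at least 50 cells in 1 library, by Pearson correlation of log2(CPM + 1) among 14258 genes with at least 200 UMIs. Units of 1 library share depth and free RNA, so these values are a description only. C1q was most like Aif1 (r = 0.975), Adgre4 (0.935) and Clec4a3 (0.932), of which Aif1 was a marker used to place phagocytes. C5ar1 was most like Klra2 (0.985), Mcemp1 (0.984) and Fpr1 (0.983). C3ar1 was most like Slamf8 (0.968), Rab7b (0.967) and Adgre1 (0.946), of which Adgre1 was also a marker used to place phagocytes. Cd55 was most like its antisense neighbour Gm16083 (0.943), then Podxl (0.899) and Nebl (0.889). C3 was most like Clcn7 (0.922), Ldlrad3 (0.867) and Spi1 (0.864), C4b like Tmem106a (0.852), Slc7a7 (0.845) and Kynu (0.832), and Cfb like Gpr137b (0.893), Fnip2 (0.882) and Cd302 (0.865).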

How the data were processed

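Glomeruli were isolated from mouse kidneys after digestion with collagenase V and single cells were captured in droplets. The study gives about 8000 captured cells without saying whether per library, while 11018, 14109 and 16586 barcodes passed the limits used here. Its limits on genes and mitochondrial UMIs left 8812, 15577 and 20005 of the barcodes with 500 UMIs or more, and its limit on ribosomal UMIs, at most 5% and read here as those of ribosomal-protein genes, left 611, 1101 and 705 of these. The authors deposited whole-number UMI counts per gene and barcode, unfiltered and not normalized, with 6794880 barcodes and 32285 genes in each of 3 libraries. Per the labels, reads were aligned to mm10 with STAR inside Cell Ranger, and the deposited count files carry a header of Cell Ranger 4. Total counts were 94903163, 103319588 and 90812138 UMIs. The study's own limits on genes per cell (200 to 3000) were tried as an alternative, and its limit on ribosomal UMIs was not applied.

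Cells were gated by marker genes as described in the report, and the subsets likewise. Counts were summed per class and library and divided by all UMIs of the class. With 1 library per group no test was run. Ratios with 0 UMIs in 1 library used a floor of 3 UMIs over the class and are lower bounds. Free RNA was estimated from barcodes with 1 to 100 UMIs. Predicted doublets were kept, and removing them with Scrublet (8.81%, 11.3% and 13.3% of cells) was an alternative. Named genes outside the 9 members were taken from those of the list past 2-fold whose counts in the pair of libraries came to 50 UMIs or more, and the 3 genes most alike in pattern, and 1 result is not reported here. The members, marker lists and gene lists were chosen with earlier results of these data known. The alternatives were a minimum of 500 or 2000 UMIs, a mitochondrial limit of 20%, the limits on genes, a gate margin of 3 markers, doublet removal, free RNA subtraction, thinning, scaling to the median gene, and a total without mitochondrial, ribosomal-protein, haemoglobin and immunoglobulin genes. For the share of all genes past 2-fold the alternatives were 5 and 100 UMIs.

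Gene positions came from GENCODE M21 (99.6% of gene identifiers matched) and promoters from RefSeq, with 6 of 9 members matched. The ratio and interval code was tested on simulated data. Python 3.11.15 with scanpy 1.11.5, pandas 2.3.3, numpy 2.4.6, matplotlib 3.10.9 and scipy 1.17.1 was used.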

Additional observations from a re-analysis of the deposited data

Results flagged for a closer look

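In 4 cases a member differed in opposite directions in a pair of classes under the same contrast. With 1 library per group these differences were not tested. C5ar1 was 2.66 higher on the log2 scale in endothelial-like cells of untreated MRL/lpr than of control and -1.01 in phagocyte-like cells, a gap of 3.67. Its endothelial levels, 0.541 and 3.42 CPM, were below those of empty droplets, 2.02 and 14.9 CPM. Between treated and untreated MRL/lpr, C1qa was 1.93 higher in neutrophil-like cells and -1.25 in phagocyte-like cells, a gap of 3.19. C1qb was 2.23 higher in neutrophil-like cells and -1.21 in phagocyte-like cells, a gap of 3.45. The neutrophil-like values rest on 13 and 34 UMIs of C1qa and 9 and 29 of C1qb. C1qc was 1.04 higher in mesangial and mural-like cells and -1.09 in phagocyte-like cells, a gap of 2.13. Relative to the median of all genes in the class the mesangial and mural-like value was 0.90. In the neutrophil-like and mesangial classes the levels of these chains were below those of empty droplets.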

How the results depend on the processing

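No paired analysis was possible because each group had 1 library. Of 1378 ratios of a member recomputed under 1 alternative each, 1183 stayed within the counting interval of the reported ratio. In 47 the sign changed, of which 6 were past 2-fold as reported and 41 were not, and in 5 and 3 of these 1 library was at or under the floor of 3 UMIs. Of 636 from ratios past 2-fold that could be recomputed, 606 stayed past it in the same direction. After free RNA subtraction 51 of 70 could be recomputed and 43 stayed, and after thinning 48 could be and 40 stayed. The rest had both libraries at or under the floor after subtraction, or fewer than 20 UMIs after thinning. The C1q ratio of untreated MRL/lpr over control in phagocyte-like cells (2.09) was 1.86 with a margin of 3 markers, 2.30 without predicted doublets and 2.43 after thinning. Treated over untreated (-1.19) it was -1.12 both with 200 to 3000 genes and with scaling to the median gene, -1.23 after free RNA subtraction and -1.31 after thinning. The 27 of 38 pairs past 2-fold over control (all genes 18.7%) became 14 of 26 after free RNA subtraction (20.1%) and 12 of 25 after thinning (19.2%). The 13 of 48 between the MRL/lpr libraries (9.55%) became 8 of 45 with a minimum of 2000 UMIs (9.67%) and 23 of 38 after free RNA subtraction (13.9%). Of ratios past 2-fold over control, C3ar1 in endothelial-like (-1.13) and C1qc in podocyte-like cells (-0.50) turned after free RNA subtraction, with the untreated library at the floor, so that these are upper limits. C5ar1 in podocyte-like cells, treated over untreated, was -0.019 with a minimum of 2000 UMIs. In the other 3 the library divided by was at the floor, so the values are lower limits that show no change of direction. These were C4b over control in phagocyte-like cells after thinning (-0.27) and in patrolling cells with 200 to 3000 genes (-0.16), and Cd55 in Trem2 Gpnmb cells, treated over untreated, after free RNA subtraction (-0.85). Among ratios under 2-fold, C1qa in endothelial-like cells went from 0.53 to -1.89 treated over untreated after free RNA subtraction. C1qb, C1qc and the sum of the chains went the same way, but with the treated library at the floor. Over control, thinning turned C3 (-0.30 to 0.42), Cfb (0.30 to -0.22) and C3ar1 (0.07 to -0.32) in phagocyte-like cells. C5ar1 in endothelial-like cells over control went from 2.66 to 4.52 after thinning, and treated over untreated C1qa in neutrophil-like cells went from 1.93 to 3.11 with a minimum of 2000 UMIs and C1qb there from 2.23 to 1.30 with a margin of 3 markers. In podocyte-like cells C3 went from 1.14 to 2.80 and C5ar1 from 1.08 to 2.05 after free RNA subtraction. The share of all genes past 2-fold over control was 15.3% higher and 11.1% lower with a minimum of 5 UMIs, and 7.71% and 4.36% with 100. Between the MRL/lpr libraries it was 8.26% and 8.78% with 5, and 1.88% and 2.60% with 100. The cause of these shifts was not tested.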

Other observations

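Only 3 cells of the treated library were stromal-like, and they held 34 C3 UMIs, or 1553 CPM (1076 to 2171). Proximal tubule-like cells numbered 44, 406 and 42, and Cfb stood at 99.8, 127 and 167 CPM in them. Among cells of no class C1q was 4.57, 531 and 520.0 CPM in the control, untreated and treated library.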
